A study of Mus musculus with 3 samples.

Results

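The 10 genes described here encode cadherins, the calcium-dependent proteins that hold neighbouring animal cells together. They were chosen by name (Cdh1, Cdh2, Cdh3, Cdh4, Cdh5, Cdh6, Cdh10, Cdh11, Cdh13 and Cdh15), and each name matched 1 row among the 55573 genes listed. To learn which of them the cells transcribed, their FPKM values were read in 3 UMI-RNAseq libraries of NIH3T3, an established line of mouse embryonic fibroblasts grown in medium with fetal bovine serum with no treatment named. The libraries belong to 1 condition, so no treatment, genotype or time point could be compared, and the sources used here do not say whether the cultures were separate. FPKM is the number of sequenced fragments counted in a gene, divided by the length of the gene in kilobases and by the library's total of counted fragments, scaled to a total of 1000000. In a bulk library, fewer cells with a transcript and less of it per cell cannot be told apart. Where a level is given under a protein name such as N-cadherin, the RNA of its gene is meant. Protein was not measured here.

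Cadherins bind the same or a similar cadherin on the next cell through their extracellular repeats. The cytoplasmic tail of a classical cadherin binds beta-catenin or plakoglobin and p120-catenin, and alpha-catenin links the complex to actin. Type I cadherins include E-cadherin of epithelia (Cdh1), N-cadherin of mesenchyme, nerve and heart (Cdh2), P-cadherin (Cdh3), R-cadherin (Cdh4) and M-cadherin of muscle (Cdh15). Type II cadherins include VE-cadherin of endothelium (Cdh5), K-cadherin (Cdh6), Cdh10, and OB-cadherin of osteoblasts and mesenchyme (Cdh11). T-cadherin (Cdh13) is anchored in the membrane by a lipid and lacks the cytoplasmic tail, so it is not a classical cadherin in structure, although it was kept with the others here. Loss of E-cadherin and gain of N-cadherin is a widely used sign of the mesenchymal state.

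The members lay on 4 chromosomes of GRCm38 in the GENCODE M21 annotation, and 6 of the 10 lay on chromosome 8. These were Cdh11 (chr8:102632095-102785642, minus strand), Cdh5 (chr8:104101625-104144511, plus), Cdh3 (chr8:106510891-106557297, plus), Cdh1 (chr8:106603351-106670246, plus), Cdh13 (chr8:118283733-119324921, plus) and Cdh15 (chr8:122847966-122867397, plus). Cdh3 and Cdh1 were neighbours on the same strand, with 46053 bases between them. Cdh6 (chr15:13028701-13173675, minus) and Cdh10 (chr15:18818947-19014236, plus) shared chromosome 15. Cdh4 lay on chromosome 2 (chr2:179442431-179899373, plus).

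Because members of a family can share reads, the coding sequences of the members were compared before their levels. Over the 45 pairs, the longest identical run of a pair was 11 to 26 nt, with a median of 15 nt, against 150 nt for a read. The 50-nt windows below lie in exon 12, the last of Cdh6 (chr15:13034537-13034586, minus strand) and of Cdh10 (chr15:19013296-19013345, plus strand), and code for the cytoplasmic part. They are shown because they hold the longest run that this pair of type II cadherins has in common, and because their levels were far apart. Capitals mark the 20 identical bases, and lower case the 15 bases on each side.
Cdh6: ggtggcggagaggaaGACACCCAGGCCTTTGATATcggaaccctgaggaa
Cdh10: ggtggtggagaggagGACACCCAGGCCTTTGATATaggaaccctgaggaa

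The type I members Cdh1 and Cdh4 had a run of 23 identical bases near the end of their coding sequences, in exon 16 of each (chr8:106668556-106668608 and chr2:179895859-179895911, both plus strand). This stretch codes for part of the tail, and it is shown as an example of how similar type I members are where the tails are alike.
Cdh1: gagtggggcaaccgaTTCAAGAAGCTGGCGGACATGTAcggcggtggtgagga
Cdh4: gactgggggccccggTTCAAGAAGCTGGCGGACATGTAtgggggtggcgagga

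In both pairs the bases next to the capitals differed, and the identical runs were much shorter than a read. The windows of Cdh6 and Cdh10 still matched at most of their flanking bases, and an identical run does not count such near matches. Of the distinct 75-nt words in all isoforms of a member, 0% occurred in another gene for 9 members, and 0.0228% (2 words of 8762) for Cdh11. In 6 members the gene overlapped another annotated gene, 13 such genes in all, but 0 of them shared an exon base with the member. Of these 13 genes, 12 were listed at 0 in every library, and the highest value of the remaining one, the pseudogene Gm14300 inside Cdh4, was 0.0757 FPKM.

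N-cadherin had the highest level of the 10 members. Its gene Cdh2 (chr18:16588877-16809246, minus strand) had 42.0, 41.7 and 42.0 FPKM in libraries 1, 2 and 3, from 2421, 2325 and 2400 fragments. The mean was 41.9 ± 0.181 FPKM (SD, n = 3), and the 3 values lay within 1.01-fold of each other. The coefficient of variation, 0.432%, was below the 2.05% that counting alone would give at this depth. A mean of 1 FPKM or more was reached by 12905 genes, and Cdh2 ranked 3368 in this set, above 73.9% of it.

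K-cadherin, which is best known from the developing kidney, was the next. Cdh6 had 10.3, 10.6 and 10.9 FPKM in libraries 1, 2 and 3, from 738, 738 and 776 fragments. Its mean was 10.6 ± 0.309 FPKM (SD, n = 3), which ranked 8033. The 3 values of Cdh6 lay far below those of Cdh2, with no overlap.

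VE-cadherin, the junctional cadherin of blood vessel endothelium, was detected near the limit of 1 FPKM. Cdh5 had 1.12, 1.25 and 1.67 FPKM, from 35, 38 and 52 fragments. The mean was 1.35 ± 0.290 FPKM (SD, n = 3), above 4.90% of the 12905 genes. Without library 3 it lay above 2.87% of the genes, and among protein-coding genes alone above 2.24%. Library 3 was the highest, but the exact Clopper-Pearson 95% intervals overlapped, from 0.779 to 1.55 FPKM in library 1, 0.887 to 1.72 in library 2 and 1.25 to 2.20 in library 3. These intervals cover counting error only, and a difference of Cdh5 between the libraries was not tested. Of 10 other genes used as markers of endothelium, 9 had a mean below 1 FPKM. The exception was Vwf, which encodes von Willebrand factor, with a mean of 1.64 FPKM, above that of Cdh5. Cldn5, Emcn and Erg were at 0 in all libraries, and Pecam1 had 3, 2 and 2 fragments. The summed level of the list lay between 1.87 and 2.39 FPKM.

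E-cadherin was detected at a low level in each library. Cdh1 had 0.370, 0.434 and 0.523 FPKM, from 15, 17 and 21 fragments, with a mean of 0.442 ± 0.0766 FPKM (SD, n = 3). The intervals of the libraries overlapped, with a lowest bound of 0.207 FPKM in library 1 and a highest of 0.799 in library 3. Epithelial markers were mostly lower still. Of the 12 listed, Epcam, Krt18, Krt5, Cldn3 and Esrp1 were at 0 in all libraries, Grhl2 had 0.433 FPKM, and only Krt14, a basal keratin, passed 1 FPKM, with a mean of 8.39 FPKM. The summed level of this list lay between 8.62 and 9.31 FPKM, most of it from Krt14.

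**Figure D1:**
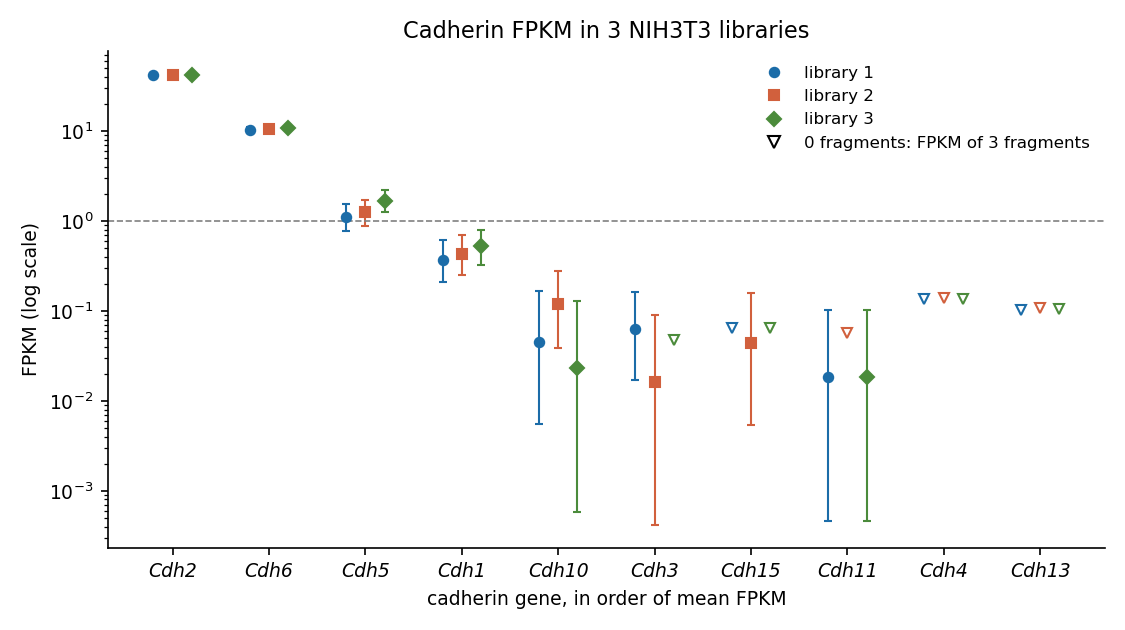
FPKM of the 10 cadherin genes (x axis, in order of mean FPKM) on a log scale (y axis) in library 1 (circles), 2 (squares) and 3 (diamonds), with exact 95% counting intervals as bars; open triangles stand at the FPKM of 3 fragments where a library had 0 fragments, and the dashed line marks 1 FPKM. Cdh2 lay between 41.7 and 42.0 FPKM and Cdh6 between 10.3 and 10.9, while the bars of Cdh10, Cdh3, Cdh15 and Cdh11 overlap.

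The other 6 members had 8 fragments or fewer over all libraries. Cdh10, a type II cadherin of the nervous system, had 2, 5 and 1 fragments in libraries 1, 2 and 3 (0.0456, 0.118 and 0.0230 FPKM). Cdh3, the P-cadherin gene next to Cdh1, had 4, 1 and 0 fragments (0.0633, 0.0163 and 0 FPKM). Cdh15, the cadherin of muscle precursors, had 2 fragments in library 2 (0.0441 FPKM) and 0 in the others. Over the pooled libraries, the intervals of these members overlapped. They ran from 0.0266 to 0.122 FPKM for Cdh10, 0.00867 to 0.0623 for Cdh3 and 0.00175 to 0.0521 for Cdh15. No direct comparison between these members was made, so neither an order nor equality is claimed for them. The markers of skeletal muscle precursors were low as well. Pax7, Myf5, Myod1 and Myog were at 0 in all libraries, Des alone of the 8 reached a mean of 1 FPKM (1.06), and the sum of the list lay between 1.05 and 1.75 FPKM.

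OB-cadherin, a cadherin commonly found in fibroblasts and osteoblasts, was almost undetected in this fibroblast line. Cdh11 had 1, 0 and 1 fragments in libraries 1, 2 and 3 (0.0182, 0 and 0.0184 FPKM). Over the pooled libraries this was 0.0123 FPKM, with an exact 95% interval from 0.00149 to 0.0445. Counted per length over all libraries, Cdh2 lay 3400-fold above Cdh11, with a counting interval from 941.0 to 28083.

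No fragment was counted for R-cadherin or T-cadherin. Cdh4 and Cdh13 were listed at 0 in all 3 libraries. The floor was set at 3 fragments per library, which would be 0.135 to 0.140 FPKM for Cdh4 and 0.103 to 0.107 for Cdh13. Against that floor, Cdh2 was at least 298.1-fold higher than Cdh4 and at least 391.3-fold higher than Cdh13 in each library.

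In all, 3 of the 10 members (Cdh2, Cdh6 and Cdh5) had a mean of at least 1 FPKM, 5 were above 0 in every library, 3 in only some, and 2 were at 0. For comparison, 23.2% of all genes listed and 49.2% of the 21980 protein-coding genes had a mean of at least 1 FPKM. The same shares are the background for the counts of the other gene lists, above and below. All members are protein coding, and the counts are given as a description only. The median of all protein-coding genes was 0.804 FPKM, a level between that of Cdh1 and that of Cdh5.

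Cdh2 and Cdh6 made up nearly the whole sum of the 10 members. Cdh24, a type II cadherin that is not a member, had 7.81 FPKM and enters neither these shares nor the sums by type below. The 10 members summed to 53.9, 54.2 and 55.1 FPKM in libraries 1, 2 and 3, of which Cdh2 held 78.0%, 77.0% and 76.2%, a mean of 77.0 ± 0.884% (SD, n = 3). Cdh6 held 19.5 ± 0.366% and Cdh5 2.47 ± 0.501%. Cdh2 and Cdh6 together held at least 95.9% in each library. E-cadherin held 0.812 ± 0.131%.

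**Figure D2:**
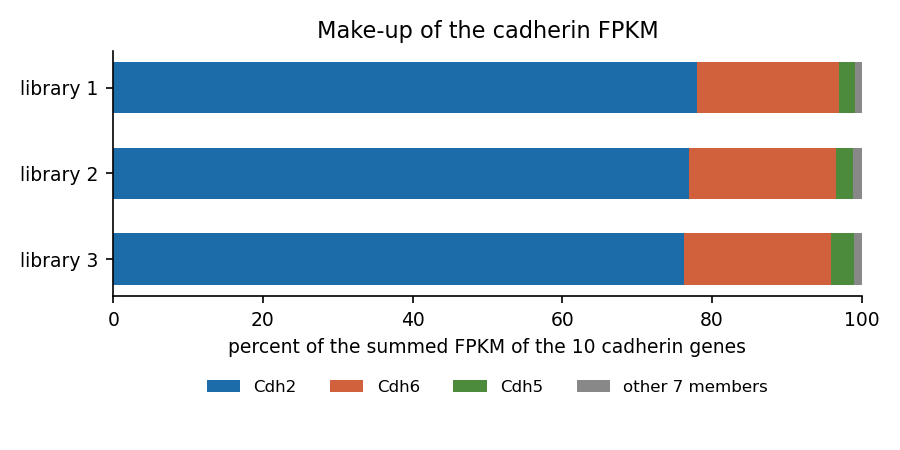
Share of the summed FPKM of the 10 cadherin genes (x axis, percent) held by Cdh2, Cdh6, Cdh5 and the other 7 members in each of the 3 libraries (bars). Cdh2 took from 76.2% to 78.0% and Cdh6 from 19.0% to 19.7%.

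To describe the steps between members, ratios were taken within each library between neighbours in mean FPKM that were above 0 in every library. Cdh2 lay above Cdh6 by a factor of 4.09, 3.93 and 3.86, a mean of 3.96 ± 0.120 (SD, n = 3). Cdh6 lay above Cdh5 by 9.19, 8.46 and 6.50, a mean of 8.05 ± 1.39, and Cdh5 lay above Cdh1 by 3.02, 2.89 and 3.20, a mean of 3.04 ± 0.157. Each of these gaps held in 3 of 3 libraries and exceeded the spread between them. The neighbours were paired by mean FPKM in these same libraries, so ratios above 1 were favoured by the choice. They are therefore no separate support for the order. The step from Cdh1 to Cdh10 was 8.12, 3.68 and 22.7, in which 1 to 5 fragments of Cdh10 stand below the line. Its log2 mean was 3.14 ± 1.32 (SD, n = 3), and without library 3 it was 2.45. Below Cdh10, the pooled counting intervals of the members overlapped, and no order is given for them. The type I members summed to 42.4 ± 0.174 FPKM and the type II members to 12.0 ± 0.576, a ratio of 3.53 ± 0.167, which was again mainly that of Cdh2 to Cdh6. By exact permutation of the signs of the log2 ratios, two-sided, each of these 5 ratios had p = 0.25, also after Benjamini-Hochberg adjustment. With 3 libraries no smaller p is possible, so 0.05 could not be reached.

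The level of a member also rests on the gene length used. The deposited FPKM of each member corresponded to a whole number of fragments when the length was set to the mean over all annotated isoforms, including short and non-coding ones. For Cdh6, the isoforms are 8167 and 1795 nt long, the shorter one without coding sequence, and the length used was 4981 nt. For Cdh5 they are 3995 and 346 nt long, and the length used was 2171 nt. If the same fragments were divided by the longest isoform, Cdh2 would have 34.6 FPKM, Cdh6 6.46, Cdh5 0.733 and Cdh1 0.280. Cdh5 then fell below 1 FPKM, which left 2 members at or above it. The order from Cdh2 to Cdh10 stayed the same, and the ratio of Cdh2 to Cdh6 grew to 2.42 on the log2 scale from 1.99. With the union of all exons as the length, Cdh2 would have 20.8 FPKM and Cdh6 5.85, and Cdh3, at 0.0265, would stand above Cdh10, at 0.0188. Both lengths were tried after the values were seen.

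**Figure D3:**
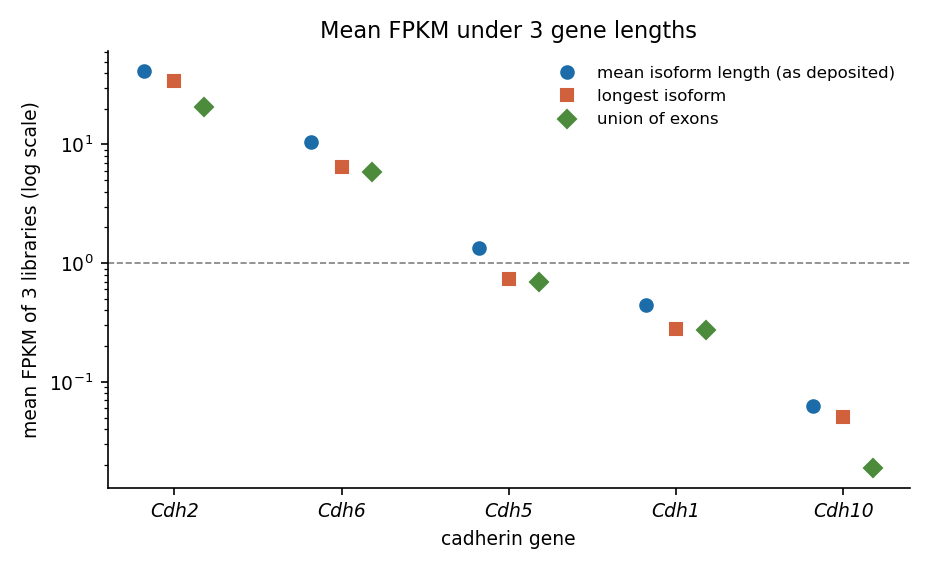
Mean FPKM over the 3 libraries (y axis, log scale) of the 5 members above 0 in every library (x axis), with fragments divided by the mean isoform length (circles, as deposited), the longest isoform (squares) or the union of exons (diamonds); the dashed line marks 1 FPKM. Cdh5 moved from 1.35 to 0.733 and 0.697 FPKM, across the line, while the order of the 5 genes stayed the same.

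The spread between libraries was small for the abundant members. On the scale of log2(FPKM + 1), the SD over libraries was 0.0061 for Cdh2 and 0.0385 for Cdh6, beside a median of 0.0422 over the 8203 genes with a mean of at least 10 FPKM. It was 0.174 for Cdh5, and 0.0635 without library 3, which had the highest value.

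Among the catenins and other cytoplasmic partners of cadherins, 10 of the 13 genes listed had a mean of at least 1 FPKM. Of protein-coding genes, 49.2% did. The median of the list was 10.2 FPKM. Ctnna1, Ctnnb1, Afdn and Vcl lay above Cdh2, and the others below it. Ctnna1 (alpha-E-catenin, the link to actin) had 423.4 ± 2.72 FPKM and Ctnnb1 (beta-catenin, which also serves Wnt signalling) 321.7 ± 4.48 (SD, n = 3). Jup, the gene of plakoglobin, which can take the place of beta-catenin, had 25.1 ± 1.20 FPKM, or 10.7 with its longest isoform. Per length, Ctnna1 lay 7.78 ± 0.117-fold and Ctnnb1 5.91 ± 0.130-fold above the sum of the 10 members. Both have many short isoforms, and with the longest isoform of each gene these ratios were 3.51 ± 0.0444 and 3.03 ± 0.0579. Ulk4, on the other strand, overlaps 14.6% of the exon bases of Ctnnb1 and had at most 1.04 FPKM. The alpha-N-catenin gene Ctnna2 was at 0 and Ctnna3 had 2 fragments, both in library 3. Among the actin and junction linkers, Afdn (afadin) had 102.1 FPKM and Vcl (vinculin) 69.2. Ctnnal1 had 10.2, Pkp4 36.4 and Ctnnbip1, an inhibitor of beta-catenin, 6.52.

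The p120-catenin gene Ctnnd1, whose product stabilizes cadherins at the membrane, had only 3.71, 4.85 and 4.71 FPKM in libraries 1, 2 and 3, from 265, 335 and 333 fragments. Its relatives Arvcf and Ctnnd2 had 8.88 and 0.533 FPKM. Of the exon bases of Ctnnd1, 61.2% (4482 of 7319) were also annotated as exons of Gm28635, a gene on the same strand, which was listed at 0 in every library. How reads that lie in both genes were counted is not given in the sources used here, and the part of the overlap in the level of Ctnnd1 was not tested. The value of Ctnnd1 is therefore uncertain.

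Most of the genes listed as repressors of E-cadherin were detected. Of the 10 listed, 8 had a mean of at least 1 FPKM, against 49.2% of protein-coding genes. The median of the list was 41.7 FPKM. The zinc finger genes Zeb2 and Zeb1 had 65.4 ± 1.90 and 63.8 ± 1.96 FPKM, Snai2 42.5 ± 1.37 and Snai1 32.4 ± 0.474 (SD, n = 3). Among the helix-loop-helix genes, Tcf4 had 58.7 FPKM, Tcf3 56.6, Twist1 41.0 and Twist2 4.99. Snai3 and Klf8 were listed at 0. Cdh1 lay below 1 FPKM, so that these 8 genes lay above it follows from the limit. With 1 condition no relation between the repressors and Cdh1 could be tested.

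Of the 13 other genes named Cdh with a number, 1 reached a mean of 1 FPKM, beside 49.2% of all protein-coding genes. This was Cdh24, a type II cadherin, with 8.61, 7.62 and 7.20 FPKM (mean 7.81 ± 0.725, SD, n = 3), which placed it next to Cdh6. Cdh6 lay above it by a factor of 1.19, 1.39 and 1.51. Cdh26 and Cdh23 followed with 0.979 and 0.956 FPKM, and 5 were at 0 in all libraries. The desmosomal list, which holds the cadherins of spot-like epithelial junctions and their partners, had 1 of 13 genes at or above 1 FPKM (Pkp2, 4.31), and Dsg2 and Dsc2 were at 0. Its lowest detected gene, Dsg1a, had 1 fragment.

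**Figure D4:**
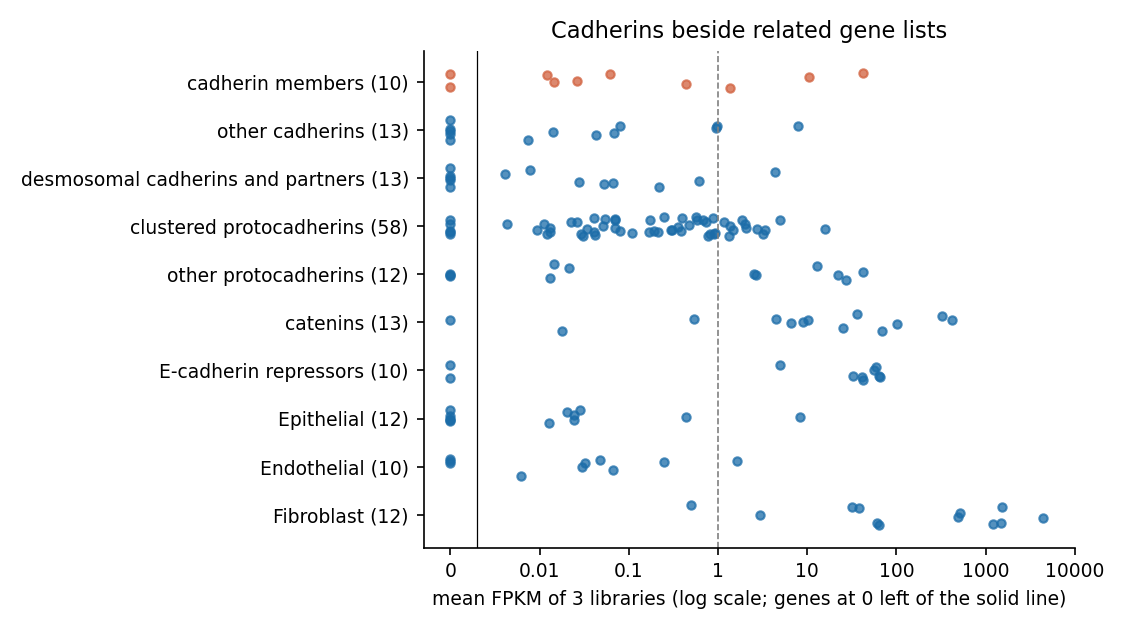
Mean FPKM over the 3 libraries (x axis, log scale, genes at 0 drawn left of the solid line) of each gene (points) in the 10 cadherin members and 9 other lists (y axis, number of genes in brackets); the dashed line marks 1 FPKM. The members spread from 0 to 41.9 FPKM. At least 1 FPKM was reached by 1 of 13 other cadherins and 1 of 13 desmosomal genes. It was also reached by 12 of 58 clustered and 6 of 12 other protocadherins, 10 of 13 catenins and 8 of 10 repressors. Of the cell type lists, 1 of 12 epithelial, 1 of 10 endothelial and 11 of 12 fibroblast genes reached it. Of all protein-coding genes, 49.2% did.

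The libraries held 13959723 to 14423209 counted fragments, a 1.03-fold range. The labels name NIH3T3 throughout, yet their text on RNA extraction speaks of retina, so markers were checked. Of 12 fibroblast genes, 11 had a mean of at least 1 FPKM, led by Fn1 (4377 FPKM), with Postn at 0.494. The share among protein-coding genes was 49.2%. Of 10 retina and neuron genes, Rbpms (57.2) and Tubb3 (5.46), which other cells also use, reached 1 FPKM, while Nrl was at 0. Of 6 blood cell genes, Lyz2 alone did (2.54).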

How the data were processed

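UMI-RNAseq was done on 3 NIH3T3 libraries. According to the methods and labels, UMIs were found with UMI-tools 1.0.0, reads were mapped with HISAT2 2.0.4, PCR copies were removed by UMI, and genes were counted with HTSeq 0.6.1. DESeq 1.10.1 is also named, without a role. The authors deposited the result as FPKM, 1 column per library, in a pair of tables that hold identical values. The build and annotation behind the counts are not given in the sources used here.

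Computation used pandas 2.3.3, numpy 2.4.6 and Python 3.11.15. To find the total of a library, single-isoform genes holding 1 fragment were used, whose FPKM depends only on gene length and that total. Each gene's FPKM was then multiplied by that total and by its mean isoform length in GENCODE M21 (GRCm38), which 55480 of 55573 genes matched. Of 26178 matched genes with a fragment, 99.2% came out whole to within 0.01 fragments in every library. On simulated fragments for 55480 genes, 100% of the counts were recovered. The simulation made and read the values with the same lengths, so it checks how totals are found, not the choice of annotation. Fragments served only for intervals, floors and lengths, and no count model was fitted.

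Intervals are exact Clopper-Pearson 95% intervals (scipy 1.17.1). A floor is 3 fragments per library. Both cover counting error only. Log2 ratios were tested by exact two-sided permutation of their signs. Figures were drawn with matplotlib 3.10.9. No filter or pseudocount was applied except where stated.

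The members and gene lists were chosen with earlier results of these data known. The genes named are all members, all catenins and repressors, the 3 highest other cadherins, the highest and lowest of other lists, and overlapping genes. Further list genes (Cldn5, Epcam, Pecam1, Pax7 and similar) were named after their values were seen. Alternatives were leaving out a replicate, TPM, median-of-ratios scaling, the median, other limits, other pseudocounts, other sets for the percentile and fragments not divided by length, and, added later, other gene lengths. All value columns were used. AmpFISH images were not analysed here, and some marker genes are not reported here.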

Additional observations from a re-analysis of the deposited data

How the results depend on the processing

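No paired analysis was possible because the 3 libraries form 1 group. Of 48 log2 ratios under alternatives, 0 changed sign, although their size moved with the gene length and the pseudocount. Most of these could not change sign. TPM and median-of-ratios scaling cancel in a ratio within a library, and an equal pseudocount keeps its sign. Leaving out a library cannot turn a ratio that was above 1 in each. Only the settings of gene length could have changed a sign. Rescaled to TPM, Cdh2 had 60.7, Cdh6 15.4, Cdh5 1.96 and Cdh1 0.642. With the longest isoform, an alternative chosen after seeing the data, they had 34.6, 6.46, 0.733 and 0.280 FPKM, and with the exon union, chosen likewise, 20.8, 5.85, 0.697 and 0.272. With either length 2 members reached 1 FPKM. Counting any level above 0, there were 8. The percentiles of Cdh2, Cdh6 and Cdh5 were 93.9, 85.5 and 77.9 among all genes listed and 75.4, 41.3 and 10.4 in TPM, and those of Cdh2 and Cdh6 were 70.2 and 29.1 among protein-coding genes, with Cdh5 at 2.24. With fragments not divided by length, the shares of Cdh2, Cdh6, Cdh5 and Cdh1 were 74.5%, 23.5%, 1.30% and 0.552%. With the longest isoform they were 82.0%, 15.3%, 1.74% and 0.665%, and with the exon union those of Cdh2, Cdh6 and Cdh1 were 75.1%, 21.2% and 0.981%.

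The SD over libraries of log2(FPKM + 1) for Cdh2 was 0.0134 in TPM and 0.0105 with median-of-ratios scaling. With a pseudocount of 0.1 it was 0.280 for Cdh5 and 0.203 for Cdh1. Leaving out each library in turn gave an SD from 0.000637 to 0.00777 for Cdh2, 0.0239 to 0.0543 for Cdh6, 0.0635 to 0.238 for Cdh5 and 0.0461 to 0.108 for Cdh1, and Cdh5 and Cdh1 varied least without library 3. A pseudocount of 1 lowered the log2 ratio of Cdh5 to Cdh1 from 1.60 to 0.70 and that of Cdh1 to Cdh10 from 3.14 to 0.44, as a pseudocount does for low values. Depth limited the 6 lowest members, with 8 fragments or fewer each.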

Other observations

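Among the protocadherins, relatives of the cadherins that lack the catenin-binding tail, 6 of 12 genes outside the clusters had a mean of at least 1 FPKM. Such a mean was found for 23.2% of all genes listed and 49.2% of protein-coding genes. Pcdh1 led with 42.8, 42.7 and 41.4 FPKM in libraries 1, 2 and 3 (mean 42.3 ± 0.769, SD, n = 3), which is next to the 41.9 FPKM of Cdh2. Pcdh19 had 27.4, Pcdh7 21.9 and Pcdh18 13.0 FPKM, each above Cdh6, Pcdh12 was the lowest detected (0.0130), and Pcdh8, Pcdh20 and Pcdh11x were at 0. Of 58 clustered protocadherins, 12 reached 1 FPKM, led by Pcdhgc3 with 15.8 FPKM, and Pcdhac1, the lowest detected, had 1 fragment. Isoforms of the alpha and gamma clusters share exons, so these values are uncertain. Among the giant cadherins, Fat1 had 29.0 FPKM and Fat4 1.94, Fat2 was the lowest detected with 6 fragments, and Fat3 was at 0.

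Nectins, which start junctions beside the cadherins, reached 1 FPKM in 4 of 5 genes, beside 49.2% of all protein-coding genes. The related Pvr led with 165.4 ± 0.899 FPKM, and Nectin4 was the lowest with 0.175. Of 11 genes for proteases that can cut cadherins, or for subunits of them, 10 reached 1 FPKM. Mmp14 led with 268.9 ± 14.6 FPKM, Adam10, which sheds E- and N-cadherin, had 78.9, 81.1 and 79.9 FPKM in libraries 1, 2 and 3, Mmp9 was the lowest detected with 1.01, and Mmp7 was at 0.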
